A study of Erythranthe nudata with 6 samples.

Results

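This section describes 51 genes of Mimulus nudatus (Erythranthe nudata, a monkeyflower) whose transcripts were abundant in wild-type ovule-bearing tissue and several-fold lower, but still read, in a mutant with carpel-like ovules. They are 51 of the 28064 genes in the deposited count table. The genes were chosen by their measured levels in the same 6 libraries, in CPM (counts scaled by the total of the library). A member had at least 10 CPM in each wild-type library and at least 1 CPM in each mutant library, and its lowest wild-type level was at least 3 times its highest mutant level. The difference between the genotypes is therefore built into the set and is given as a description. RNA came from the septum or replum of opened flowers with the ovules still on it, after the ovary walls had been taken off, with 6 gynoecia pooled per plant. There were 3 homozygous wild-type plants and 3 plants homozygous for the recessive mutation that arose in the inbred line GMR2, all found among F2 plants of a cross between mutant and wild type. All plants thus shared the GMR2 background and the same growth conditions, a chamber at 21°C with 18-hour days and 30% relative humidity. The mutated gene is not named in the labels, so no transcript could serve as a check of the genotypes.

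An ovule forms on the placental tissue inside the carpel and consists of a central nucellus, in which the female gametophyte develops, wrapped by integument tissue that later becomes the seed coat. In Arabidopsis, genes for ovule identity keep integuments from taking on carpel features, and their loss turns integument into carpel-like outgrowths. The table gives genes only as identifiers (MgTOL, a letter and a number), and these were not paired with names or functions here. Whether the 51 transcripts come from the ovule, from the replum or from both could not be checked with marker genes, so they are called here by their levels and not by a tissue. In this bulk RNA, fewer cells of a type and less RNA per cell cannot be told apart.

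The libraries held 35487055 to 45149217 counts. Mutant replicate 1 stood apart from the other mutant libraries: its Spearman correlations with them across tested genes were 0.889 and 0.907, against 0.939 between those. The main counts over the 51 members were therefore repeated without it and, for comparison, without each of the other mutant libraries, as alternatives added after seeing the data. Even the faintest reading of a member, 42 counts of MgTOL.F1032.v5.0 in mutant replicate 2, gives 1.18 CPM with an exact 95% interval of 0.853 to 1.6 CPM, which covers counting error only. The lowest reading in the wild type was 443 counts.

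The 51 members together took 0.747%, 0.730% and 0.595% of all counts in the 3 wild-type libraries, and 0.0485%, 0.0628% and 0.0544% in the 3 mutant libraries. The wild-type mean was 0.691% ± 0.0837 and the mutant mean 0.0552% ± 0.00718 (SD, n = 3 each), so the mutant share was 8.0% of the wild-type share. Wild-type means ranged between 14.4 and 1401 CPM (median 52.6 CPM), and 18 members had at least 100 CPM. Mutant means ranged between 1.5 and 164 CPM (median 3.79 CPM), and 10 members still had at least 10 CPM. The gap between the lowest wild-type and the highest mutant plant had a median of 5.05-fold, with 16 members under 4-fold and 10 at 10-fold or more. Without mutant replicate 1, 2 or 3 the mutant mean reached 10 CPM in 9, 11 or 12 members. The gap was then under 4-fold in 11, 11 or 12 members and at least 10-fold in 12 each time. Leaving out a mutant plant cannot narrow the gap.

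**Figure D1:**
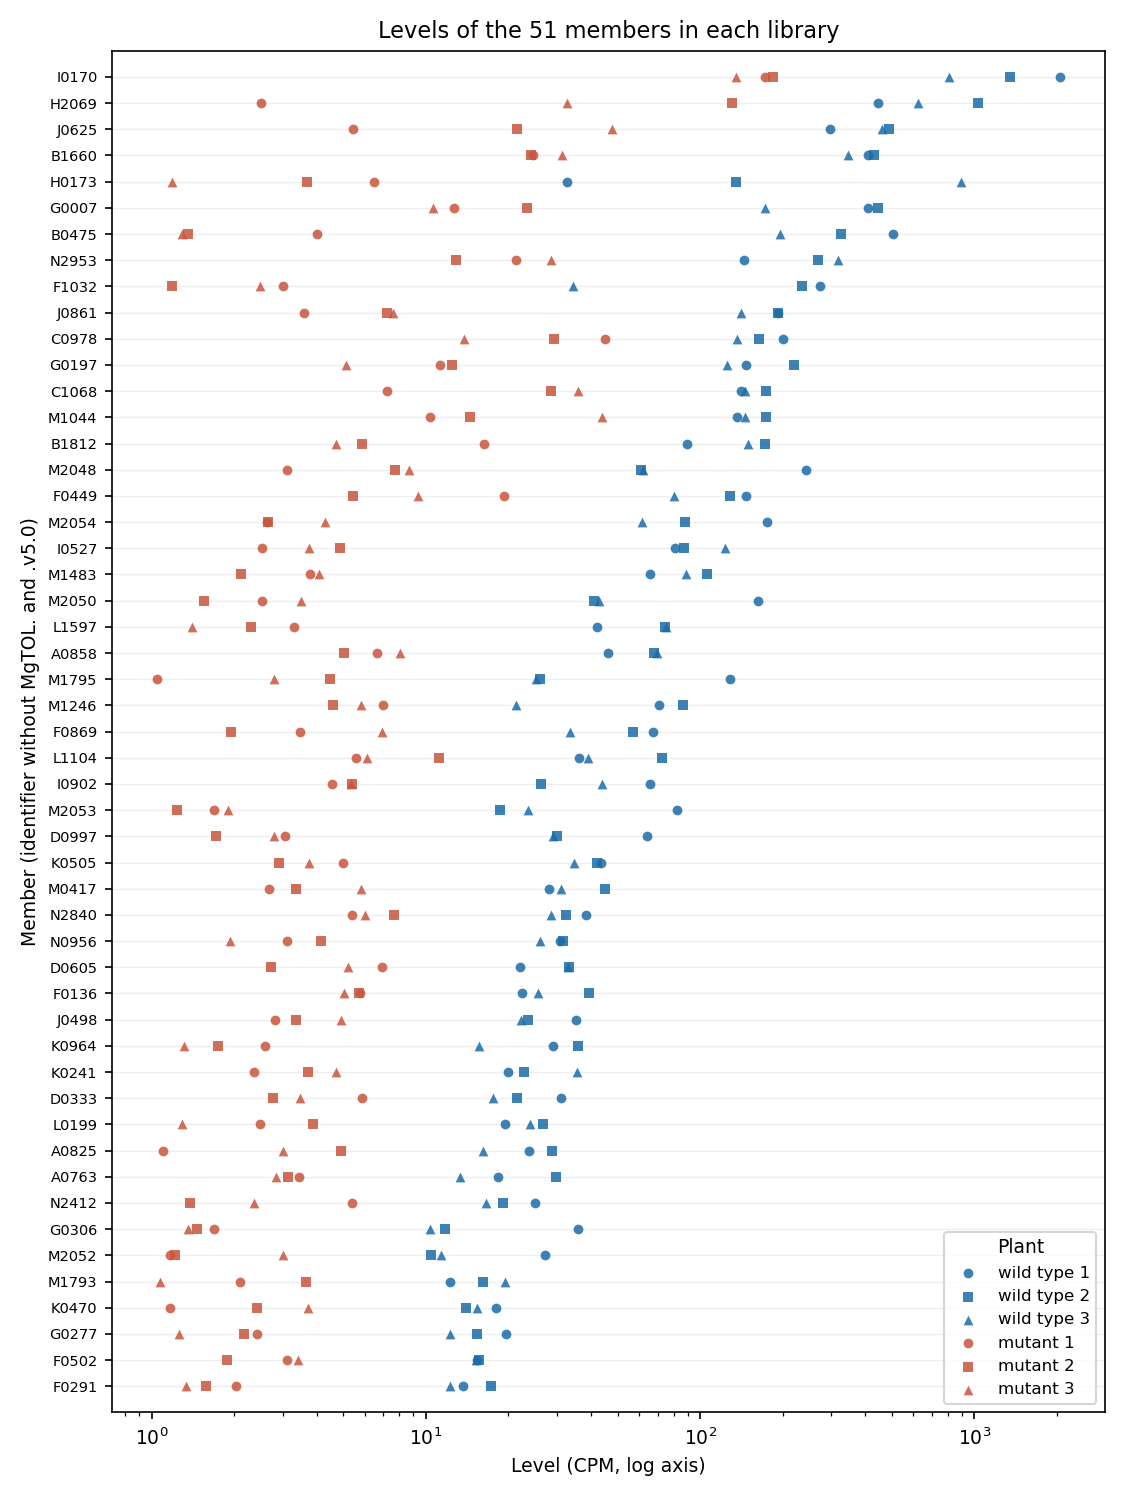
Level of each of the 51 members (rows, ordered by wild-type mean) in each of the 6 libraries, in CPM on a log axis, with blue symbols for wild-type and red symbols for mutant plants. Every blue symbol lies to the right of the red ones in its row because the choice required it, while the distance and the scatter differ between members, most of all for H2069 in the mutant and H0173 in the wild type.

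How much transcript the mutant kept differed widely. The mutant mean was 0.650% to 19.1% of the wild-type mean, with a median over members of 9.71%. It was under 2% for 3 members, 2% to 5% for 9, 5% to 10% for 14, 10% to 15% for 13 and 15% to 20% for 12. Without mutant replicate 1 these numbers were 3, 9, 14, 15 and 8, with 2 members above 20% and a median of 9.23%. Without mutant replicate 2 they were 3, 12, 11, 15 and 8, with 2 above 20% and a median of 9.94%. Without mutant replicate 3 they were 3, 10, 16, 12 and 9, with 1 above 20% and a median of 9.50%. The rule sets a floor in CPM and not a kept share, so a member near 10 CPM in the wild type cannot fall under about 10% in the mutant, while an abundant one can. For the 3 members under 2%, "partly retained" describes a level above 1 CPM and not a sizeable share. Read plant by plant, the median member stood at 8.72%, 7.60% and 8.20% of its wild-type mean in mutant replicates 1, 2 and 3.

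Among the 10124 genes with at least 10 CPM in each wild-type library, the median mutant level was 89.4% of the wild-type level. All wild-type plants were above all mutant plants in 17.6% of these genes and below them in 5.12%. All levels here are scaled by column totals, in genes chosen by their wild-type level, and what either adds to this lean was not tested. Over the 20305 genes tested, the median log2 change of mutant over wild type was -0.194 by column totals. It was 0.014 with TMM, a scaling by the bulk of genes. The 3-fold gap was met by 191 genes, or 1.89%, of which 51 are the members. The other 140 met the same wild-type floor and gap but were below 1 CPM in at least 1 mutant library. The median of those 140 was 1.70% of the wild-type level. The ranges overlapped, because 32 of the 140 kept at least 5% and 12 of the 51 members kept less. The same rule turned round, with mutant plants high and wild-type plants low but read, was met by 13 genes.

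**Figure D2:**
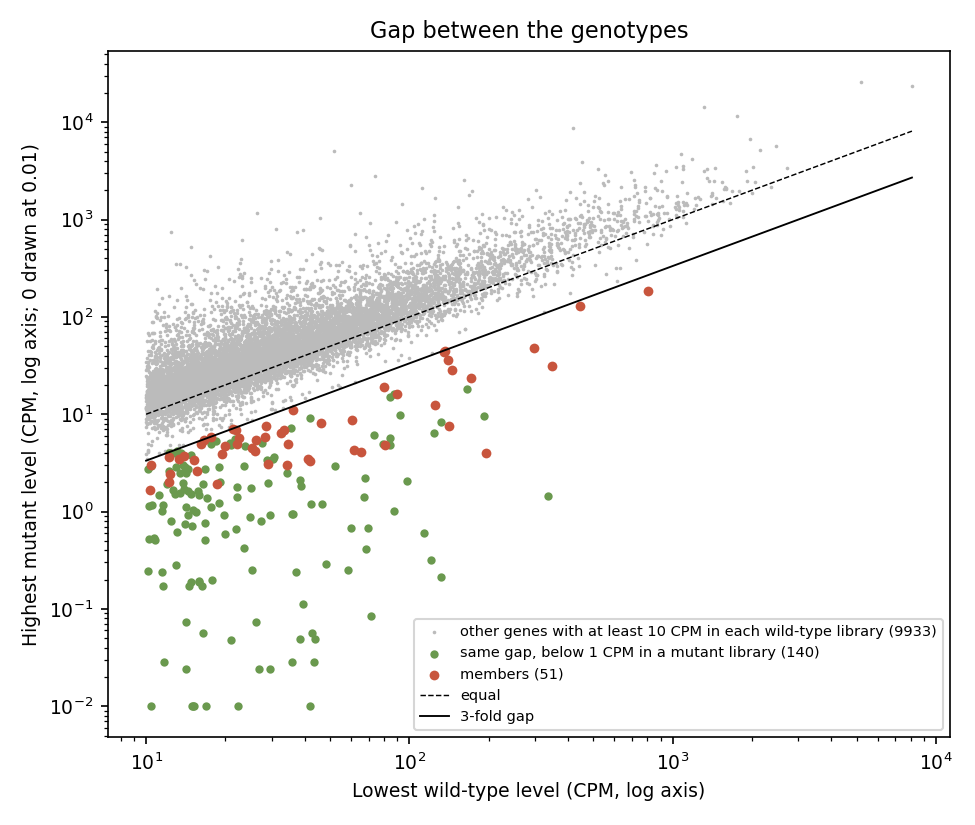
Lowest wild-type level against highest mutant level, both in CPM on log axes, for the 10124 genes with at least 10 CPM in each wild-type library. The solid line marks the 3-fold gap, and the 51 members (red) lie below it, among 140 genes (green) that drop below 1 CPM in a mutant library.

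The 6 members with the highest wild-type means took 48.7% to 55.5% of the members' counts in wild-type plants and 46.2% to 61.6% in mutant plants. MgTOL.I0170.v5.0 was the most abundant, with 2047, 1348 and 808 CPM in the wild-type plants and 172.7, 184 and 136 CPM in the mutant plants. Its means were 1401 ± 622 and 164 ± 25.3 CPM (SD, n = 3 each), so 11.7% was kept. It was the single member with a mutant mean of at least 100 CPM, and its mutant plants lay closer together than its wild-type plants. MgTOL.B1660.v5.0 was the steadiest of the 6, with 409, 429 and 347 CPM in wild-type plants and 24.6, 24.1 and 31.4 CPM in mutant plants. It kept 6.76%, and within either genotype the highest plant was at most 1.30 times the lowest.

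The next members in abundance varied more. MgTOL.H2069.v5.0 had 445, 1029.8 and 622 CPM in wild-type plants and 2.51, 130.3 and 32.6 CPM in mutant plants. Its mutant plants spanned 51.9-fold, the widest span of any member, from very low in mutant replicate 1 to a level in mutant replicate 2 that the lowest wild-type plant exceeded 3.41-fold. The kept share of 7.89% rests on mutant replicate 2, without which it was 2.51%. MgTOL.J0625.v5.0 had 297, 487 and 459 CPM in wild-type plants and 5.43, 21.4 and 47.8 CPM in mutant plants, where replicate 1 was again the lowest. It kept 6.00%, or 3.24% without mutant replicate 3. MgTOL.G0007.v5.0 had 409, 444 and 172 CPM in wild-type plants and 12.7, 23.3 and 10.6 CPM in mutant plants, which is 4.54% of the wild-type mean.

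MgTOL.H0173.v5.0 was unlike every other member in the wild type, where its plants read 32.7, 136 and 891 CPM. The highest was 27.3 times the lowest, the widest wild-type span among the 51. In the mutant it had 6.48, 3.69 and 1.19 CPM, so replicate 3 was the highest wild-type plant and, under the same number, the lowest mutant plant. Its kept share was 1.07% over all plants and 4.5% without wild-type replicate 3. The neighbouring MgTOL.H0169.v5.0, with 3 identifiers between them, ran in the opposite order in the wild type, at 691, 177.4 and 121 CPM, and was at 0.317, 0.0564 and 0.119 CPM in the mutant. It is not a member because it was below the mutant floor, and it was picked out after its values were seen. Summed over both genes, the wild-type plants had 724, 313 and 1012 CPM and the mutant plants 6.80, 3.75 and 1.31 CPM. A sum of 2 genes cannot span more than the wider of them, so nothing is read from its span. Whether these genes share sequence, so that reads could pass between them, was not tested.

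The widest gaps were not all in the most abundant members. MgTOL.B0475.v5.0 had 504, 326 and 195 CPM in wild-type plants and 4.02, 1.35 and 1.29 CPM in mutant plants. Its lowest wild-type plant was 48.6 times its highest mutant plant, and 0.650% was kept, the least of any member. Without mutant replicate 1, which was the highest mutant plant, the kept share was 0.386%. MgTOL.J0861.v5.0 followed with an 18.6-fold gap, between 192, 193 and 141 CPM and 3.61, 7.19 and 7.57 CPM. MgTOL.I0527.v5.0, with 81.0, 87.2 and 122.9 CPM against 2.53, 4.88 and 3.74 CPM, had a 16.6-fold gap. MgTOL.M1483.v5.0 had a 16.1-fold gap, with 65.5, 105.6 and 89.2 CPM against 3.78, 2.11 and 4.07 CPM. These 3 genes kept 3.49% to 3.83%, and in each the plants of a genotype lay within 2.10-fold of each other. MgTOL.M2054.v5.0, described with its neighbours, had a 14.4-fold gap. MgTOL.L1597.v5.0 had a 12.7-fold gap, with 41.9, 74.6 and 75 CPM against 3.31, 2.31 and 1.40 CPM. The low kept share of MgTOL.F1032.v5.0, 1.23%, was uneven in the wild type, where replicate 3 had 34.4 CPM and the others 273 and 234 CPM, against 3.02, 1.18 and 2.48 CPM in the mutant.

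The members that kept most were of modest abundance, except for 1. MgTOL.N2840.v5.0 kept 19.1%, with 38.5, 32.4 and 28.6 CPM in wild-type plants and 5.39, 7.64 and 6.00 CPM in mutant plants. MgTOL.F0136.v5.0 kept 18.9%, with 22.5, 39.2 and 25.7 CPM against 5.73, 5.72 and 5.05 CPM, the tightest mutant values of any member. MgTOL.F0502.v5.0 kept 18.2% and had the tightest wild-type values, 15.4, 15.7 and 15.3 CPM, with 3.12, 1.89 and 3.40 CPM in the mutant. MgTOL.C0978.v5.0, at 201, 164 and 137 CPM in the wild type, was the abundant exception. It kept 17.5%, with 45, 29.3 and 13.7 CPM in the mutant, and mutant replicate 1 was the highest of these.

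At the edges of the rule, members and the genes just outside differed little. For the 3-fold gap, MgTOL.D0333.v5.0 at 3.01 and MgTOL.C0978.v5.0 at 3.04 lay inside, and MgTOL.K1147.v5.0 at 2.98 and MgTOL.J0611.v5.0 at 2.92 lay outside. For the wild-type floor, MgTOL.G0306.v5.0 and MgTOL.M2052.v5.0 were inside with lowest wild-type levels of 10.4 and 10.5 CPM, and MgTOL.A0904.v5.0 and MgTOL.G0210.v5.0 outside with 8.92 and 8.88 CPM. For the mutant floor, MgTOL.M1795.v5.0 and MgTOL.M1793.v5.0 were inside with lowest mutant levels of 1.05 and 1.07 CPM, and MgTOL.N0265.v5.0 and MgTOL.A0771.v5.0 outside with 0.976 and 0.958 CPM.

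A feature that the rule did not use is the identifier. Of the 51 members, 7 (13.7%) had another member within 5 identifier numbers in the same letter series, and they formed a pair and a run of 5. The run consists of MgTOL.M2048.v5.0, MgTOL.M2050.v5.0, MgTOL.M2052.v5.0, MgTOL.M2053.v5.0 and MgTOL.M2054.v5.0, so 5 of 7 consecutive identifiers were members. Among the 140 genes with a deeper loss, a larger set than the members, 31 (22.1%) had another of their kind within 5 numbers. Of the 51 members, 2 had 1 of those 140 within 5. Of the 10124 genes with at least 10 CPM in each wild-type library, 98.4% had another such gene within 5, but that set is far larger. The share expected for sets of 51 or 140 genes was not computed. The members came from 13 of the 15 letter series. The M series held 11 of the 51, or 21.6%, against 7.86% of the genes with at least 10 CPM in each wild-type library. Without the run it held 6 of 46, or 13.0%. The sources used here do not say whether identifier order follows position in the genome, and no such position was used.

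The 5 members of the run also resembled each other from plant to plant. MgTOL.M2048.v5.0 had 243, 60.6 and 62.1 CPM in wild-type plants and 3.12, 7.69 and 8.69 CPM in mutant plants. MgTOL.M2050.v5.0 had 163, 41.1 and 42.7 CPM and then 2.53, 1.55 and 3.50 CPM, and MgTOL.M2053.v5.0 had 82.5, 18.6 and 23.6 CPM and then 1.68, 1.24 and 1.90 CPM. In all 3, wild-type replicate 1 stood at more than 3 times the others, which lay close together. MgTOL.M2052.v5.0, with 27.1, 10.5 and 11.3 CPM, and MgTOL.M2054.v5.0, with 176, 88.3 and 61.6 CPM, were also highest in wild-type replicate 1. In the mutant these had 1.17, 1.21 and 3.02 CPM and 2.63, 2.65 and 4.28 CPM, and all 5 genes of the run were highest in mutant replicate 3. Of all genes past both floors of the rule, 48.5% were highest in wild-type replicate 1 among wild-type plants. Among mutant plants, 36.2% were highest in replicate 3.

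Summed, the run had 691, 219 and 201 CPM in wild-type plants 1 to 3, against 11.1, 14.3 and 21.4 CPM in the mutant plants. In the wild type MgTOL.M2050.v5.0 stayed at 67.1%, 67.8% and 68.7% of MgTOL.M2048.v5.0 while both changed about 4-fold between plants. In the mutant the same ratio was 81.3%, 20.1% and 40.3%, so the proportion was not kept there. MgTOL.M2054.v5.0 had no fixed proportion in the wild type either, at 72.3%, 146% and 99.1% of MgTOL.M2048.v5.0. The genes in between did not follow. MgTOL.M2049.v5.0 had 5.29, 0.354 and 7.60 CPM in wild-type plants and 2.53, 2.71 and 3.05 CPM in mutant plants, and MgTOL.M2051.v5.0 had 3.52, 5.03 and 3.05 CPM and then 1.85, 2.28 and 3.81 CPM. Beyond the run, MgTOL.M2057.v5.0 had 17.8, 15.0 and 4.83 CPM and then 0.999, 1.21 and 1.59 CPM, below both floors of the rule. If genes of the run are close copies, reads could have been shared or dropped between them, and this was not tested.

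**Figure D3:**
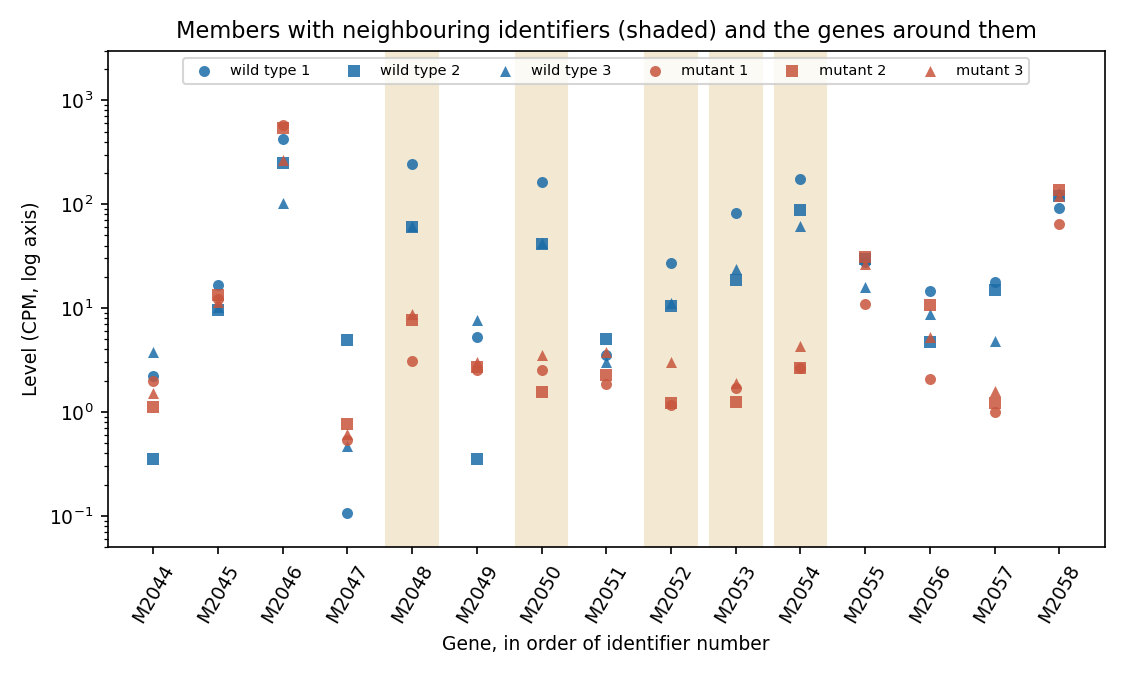
Level in CPM (log axis) of the 15 genes from M2044 to M2058, in order of identifier number, in each library, with members shaded. In the 5 shaded genes wild-type replicate 1 (blue circles) is highest and all mutant plants (red) are under 9 CPM, while of the unshaded genes M2057 is also higher in all wild-type plants but below the floors of the rule.

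The pair was less alike. MgTOL.M1795.v5.0 had the wild-type profile of the run, with 128, 26.1 and 25.3 CPM, and 1.05, 4.48 and 2.79 CPM in the mutant. MgTOL.M1793.v5.0 had 12.2, 16.2 and 19.4 CPM, with wild-type replicate 1 lowest, and 2.10, 3.66 and 1.07 CPM in the mutant. In a count chosen after the values were seen, a level in wild-type replicate 1 of at least 2 times both other plants was found in 7 of the 51 members, 4 of them in the run, against 1.73% of the 9948 genes with at least 10 CPM in each wild-type and 1 CPM in each mutant library. The kept share of such genes depends on that plant, and without it MgTOL.M2048.v5.0 kept 10.6% in place of 5.33%, MgTOL.M2050.v5.0 6.03% in place of 3.07%, MgTOL.M2053.v5.0 7.62% in place of 3.87% and MgTOL.M1795.v5.0 10.8% in place of 4.63%. The same held for MgTOL.G0306.v5.0, at 35.7, 11.7 and 10.4 CPM against 1.68, 1.47 and 1.36 CPM, which kept 7.79%, or 13.6% without wild-type replicate 1.

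Across all members no single wild-type plant was highest throughout. Wild-type replicates 1, 2 and 3 were the highest wild-type plant for 22, 22 and 7 members, or 43.1%, 43.1% and 13.7%, against 48.5%, 24.9% and 26.6% of the 9948 genes. Without the run of 5, a count added after seeing the data, they were 17, 22 and 7. Wild-type replicate 3 was the lowest for 27 members, or 52.9%, against 43.1% of the 9948 genes. On TMM-scaled levels (trimmed mean of M-values, a scaling by the bulk of genes) replicates 1 to 3 were highest for 20, 21 and 10, or 39.2%, 41.2% and 19.6%, against 32.9%, 30.1% and 37.1% of the 9948 genes. The share of members for replicate 1 thus lay below that of the 9948 genes by column totals and above it by TMM, and these differences were not tested. In the mutant, replicates 1, 2 and 3 were the highest for 19, 13 and 19 members, or 37.3%, 25.5% and 37.3%. The shares of the 9948 genes were 31.2%, 32.6% and 36.2%. The same replicates were the lowest for 18, 16 and 17 members, or 35.3%, 31.4% and 33.3%, against 44.1%, 35.1% and 20.8%. On TMM-scaled levels they were the highest for 23, 13 and 15 and the lowest for 14, 18 and 19. The shares of members lowest were then 27.5%, 35.3% and 37.3%, against 36.1%, 34.5% and 29.4% of the 9948 genes. Mutant replicate 1, the library that stood apart, was then the highest for 45.1% of members and 39.5% of the 9948 genes.

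Plants of a genotype differed somewhat more in the members than in genes at large. The 9948 genes were not matched to the members by level, and the median member had a mutant mean of only 3.79 CPM. The rule itself favours genes with a small spread within a genotype. The highest wild-type plant was a median of 1.78 times the lowest, against 1.49 times over the 9948 genes, and in the mutant the medians were 2.17 and 1.73. The median SD of log2(CPM + 0.5) for members was 0.42 (wild type) and 0.51 (mutant), and it was 0.30 and 0.40 for the 9948 genes. For the 140 genes with a deeper loss it was larger than for members, at 0.55 and 0.68. A span of 3-fold or more was seen for 8 members within the wild type and 16 within the mutant, beside 3.88% and 13.7% of the 9948 genes. Of the 16, mutant replicates 1, 2 and 3 were the lowest for 7, 3 and 6. Both spans were under 2-fold for 12 members. Over 2 mutant plants a span cannot be wider than over 3: without mutant replicate 1, 2 or 3 it was 3-fold or more for 6, 9 or 7 members, beside 3.79%, 6.38% or 9.45% of the 9948 genes. Both spans were then under 2-fold for 23, 17 or 21 members.

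**Figure D4:**
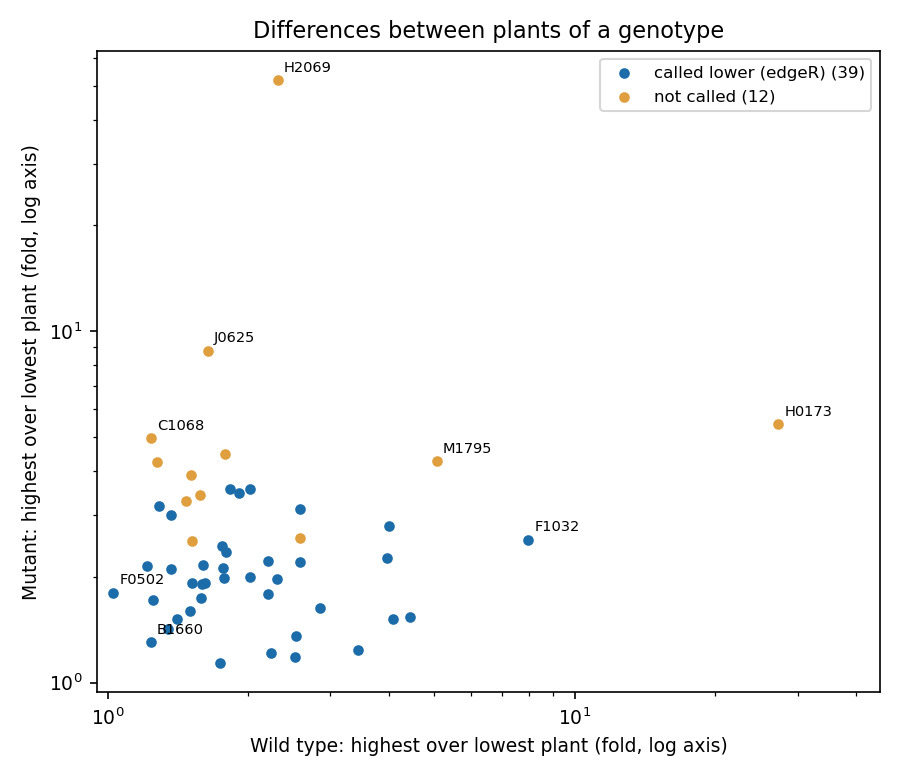
Fold between the highest and the lowest plant in the wild type (horizontal, log axis) and in the mutant (vertical, log axis) for the 51 members, coloured by the edgeR call over all genes. Most points lie under 3-fold on both axes, with H2069 at 51.9-fold in the mutant and H0173 at 27.3-fold in the wild type, and the 12 members not called lie mostly towards the top.

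All 51 members passed the filter on low counts, and their levels had to differ by the rule. In the edgeR quasi-likelihood test across 20305 genes, 39 of the 51 were called lower in the mutant at an adjusted p below 0.05, beside 1.21% of all genes tested, and nothing is read from this because the rule used the same contrast. The fitted log2 change of mutant over wild type ran from -6.98 to -2.17 with a median of -3.13, and the median of all tested genes was 0.01. The 12 members not called had a median span between mutant plants of 4.26-fold, and the called members 1.97-fold. They included MgTOL.H2069.v5.0, MgTOL.J0625.v5.0 and MgTOL.H0173.v5.0, which are among the 6 most abundant. Leaving out 1 wild-type plant left 11 to 14 members called, and leaving out mutant replicate 1, 2 or 3 left 41, 16 and 13. MgTOL.B0475.v5.0, MgTOL.B1660.v5.0, MgTOL.I0527.v5.0, MgTOL.J0861.v5.0, MgTOL.M1483.v5.0 and MgTOL.M2054.v5.0 were called in the full fit and also whichever library was dropped. With other fits the number of members called was 51 (DESeq2), 34 (limma-voom) and 17 (edgeR with the replicate number as a block).

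The same measure can be read in a library that took no part in the choice, by applying the rule to the other 5. Only the reading in the plant left out is free of the choice. The levels of the other genotype that it is set against were used by the rule, whichever genotype is left out. The genes past the floors, given beside, were not chosen for a gap. Without mutant replicate 1 the rule found 97 genes, and in that plant 87 of them lay below the lowest wild-type plant and 69 by at least 3-fold. That is 89.7% and 71.1%, against 47.0% and 2.84% of the 9980 genes past both floors in the other libraries. Without mutant replicates 2 and 3 the rule found 86 and 93 genes, of which 93.0% and 94.6% lay below the lowest wild-type plant in the plant left out. The median level in the plant left out was 10.5%, 11.8% and 12.4% of the wild-type mean for mutant replicates 1, 2 and 3, beside 82.3%, 87.8% and 91.5% for all genes past the floors. Of the 97, 86 and 93 genes, 18, 10 and 12 were below 1 CPM in the plant left out, and 10, 6 and 5 reached at least the lowest wild-type level. Each of these readings is 1 plant, so it carries no test.

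For the wild type, the rule without replicates 1, 2 and 3 found 66, 64 and 74 genes. In the plant left out 97.0%, 96.9% and 97.3% of them lay above the highest mutant plant, against 41.8%, 31.0% and 29.4% of all genes past the floors. The 3-fold gap was kept there by 77.3%, 81.3% and 68.9%, and 2 genes in each case were at or below the highest mutant plant. Wild-type replicate 3 had the most genes below 10 CPM, at 11 of 74.

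**Figure D5:**
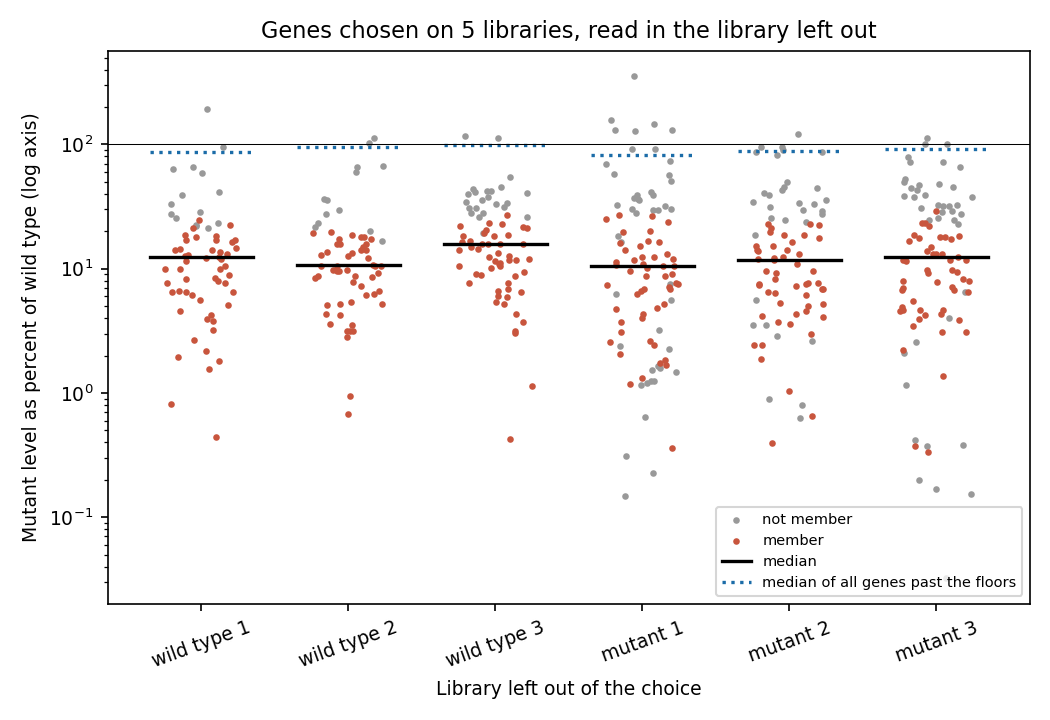
Mutant level as percent of wild type (log axis) read in each library for the genes chosen on the other 5 libraries: for a mutant library its level over the wild-type mean, for a wild-type library the mutant mean over its level. Points are genes (red for the 51 members, grey for genes that fail the rule with the library put back; 2 readings of 0 are left off), black bars are medians from 10.5% to 15.9%, and dotted lines are medians of all genes past the floors.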

How the data were processed

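The deposited file is a single table of raw counts, with genes in rows and the 6 libraries in columns. Libraries were strand-specific per the labels' protocols. The submitters' processing notes name featureCounts 1.22.2, STAR 2.7.11b, Trimmomatic 0.39, SAMtools 1.12 and Picard 2.25.6. Duplicate reads had been marked in the alignments, per the file headers. Not given in the sources used here were the genome build, the strand setting and the treatment of duplicates and of reads with several positions, which bear most on near-identical gene copies. Columns were matched to samples by the library name in the labels, and 0 other sample columns were present.

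CPM is the count over the column total, times 1000000. Genes were tested with edgeR 4.0.16 in R 4.3.3 (filterByExpr with a minimum count of 10 and a minimum total of 15, TMM, glmQLFit and glmQLFTest, genotype only, Benjamini-Hochberg over 20305 genes) after a check on simulated counts. DESeq2 1.42.0 and limma-voom (limma 3.58.1) were alternatives. Replicates were separate plants, and any 2 of a group differed by more than counting noise (chi-square over its degrees of freedom, 201 or more). Members, lists and rules were chosen with earlier results of these data known. Named members are the 6 with the highest wild-type mean, the 6 with the widest gap, the 4 that kept most and the 4 that kept least, those nearest each threshold, and those with a neighbouring identifier. Planned gene lists and cell type markers could not be used without gene names.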

Additional observations from a re-analysis of the deposited data

How the results depend on the processing

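Scaling changed which genes met the rule: with TMM or RLE library sizes 45 or 44 genes did, 41 or 40 of them members. The median kept share over these changed sets was 9.0% or 8.72% in place of 9.71%. For each of the 25 named members, however, the kept share was higher with TMM and RLE than by column totals. That of MgTOL.I0170.v5.0, for example, was 13.9% with TMM in place of 11.7%. Looser or stricter thresholds moved the number by construction. A gap of 2 or 5 gave 114 or 27 genes with a median kept share of 16.7% or 5.84%. A wild-type floor of 5 or 20 CPM gave 54 or 37 genes with 10.6% or 7.89%, and a mutant floor of 0.5 or 2 CPM gave 75 or 30 genes, the former with 7.83%. With 1 library left out, 64 to 97 genes met the rule, with a median kept share of 10.5% to 11.8%. Of the 20305 genes tested, 246 were called lower, against 966 with DESeq2, 88 with a replicate block and 60 to 404 with 1 library left out. Members called lower were 39, against 17 with the replicate block and 11 to 41 with 1 library left out. Whether shared replicate numbers pair plants was not settled. The correlations of deviations were 0.094, 0.197 and -0.027 for like numbers. Those of unlike numbers ran from -0.152 to 0.045, the latter for wild-type replicate 3 with mutant replicate 1. The values 0.094 and 0.197 thus lay above all unlike ones, and -0.027 lay among them. Over 200 alternative values for the 25 named members, 11 moved by more than 1.5 times. In 0 did the mutant mean reach the wild-type mean. The 3-fold gap of the rule fixes this for any library left out, so nothing is read from it. One of the 11 was MgTOL.M2052.v5.0, which kept 11.1%, or 7.31% without mutant replicate 3. MgTOL.H0173.v5.0 kept 0.691% without mutant replicate 1. Counting error bears on membership near the mutant floor, where the interval of the lowest reading, 42 counts, spans 1 CPM.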
